A study of Mus musculus with 6 samples.

Results

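The 10 genes described here make, load and switch on MHC class I, the cell-surface molecule that shows peptides from inside a cell to CD8+ T cells. They were chosen by name, with earlier results of these data known: the heavy chain genes *H2-K1*, *H2-D1*, *H2-Q4*, *H2-Q7* and *H2-T23*, the light chain *B2m*, the peptide transporter genes *Tap1* and *Tap2*, the loading factor *Tapbp* and the transcriptional activator *Nlrc5*. All 10 are among the 54309 gene identifiers of the table, and all 10 passed the minimum for testing, as did 13963 genes in all. RNA came from whole subcutaneous tumors of MCA205, a fibrosarcoma line of C57BL/6 origin, grown in female C57BL/6J mice that were 7 weeks old. The control group of 3 tumors was given milliQ water, and the FF-10101 group of 3 tumors drank water with 0.1 mg/mL of FF-10101 from day 1 on. All tumors were collected on day 8. FF-10101 is an irreversible inhibitor of the kinase FLT3 that also inhibits CSF1R, the growth factor receptor of macrophages. Mice drank freely, so the dose per mouse is not fixed by the design. Tumor cells and host cells both carry the C57BL/6 class I genes, so their reads cannot be separated, and in bulk RNA more cells of a type and more RNA per cell cannot be told apart.

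Class I works as an assembly line. Proteasomes, in inflamed tissue often with the interferon-induced subunits of the immunoproteasome, cut proteins into peptides, the TAP1–TAP2 pump carries these into the endoplasmic reticulum, and tapasin (*Tapbp*) with calreticulin and ERp57 holds the empty heavy chain and β2-microglobulin until a peptide fits. The genes answer to interferon-γ through factors such as IRF1, and to NLRC5, which has no DNA-binding domain of its own and acts at the promoters through RFX, CREB/ATF1 and NF-Y proteins. Tumors often lose this pathway and so escape CD8+ T cells, while NK cells read it as an inhibitory signal.

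The promoters of these genes are shown first, because NLRC5 and the interferon factors are known to act there. Whether the promoters bear on the levels measured here was not tested. RefSeq promoter sequences (build GRCm38.p6) were found for 8 of the 10 genes, all but *Tap2* and *Nlrc5*. Within the 250 bases before the start site, 3 short motifs were searched on both strands: AANNGAAA, the core of the sites bound by IRF proteins; TGACG, the core of the sites of the CREB/ATF family; and CCAAT, the box bound by NF-Y. The IRF core was in 6 of the 8 promoters against 21.3% of all 32851 promoter windows of this length, the CREB/ATF core in 6 of 8 against 17.8% and the CCAAT box in 8 of 8 against 33.9%. The IRF core was in the promoters of the 5 heavy chain genes and *B2m*, and those of *Tap1* and *Tapbp* held none in this window. A match describes letters in a window and does not show that a factor binds. Each sequence below starts 60 bases before the IRF core farthest from the start site and ends 82 bases after the core, 5′ to 3′ on the strand of the gene, with the motifs in capitals on whichever strand they match (a CCAAT box on the other strand reads ATTGG). They are *H2-K1* at chr17:34000348-34000497 on the minus strand, *H2-D1* at chr17:35262884-35263033 on the plus strand, *H2-Q4* at chr17:35379404-35379553 on the plus strand, *H2-Q7* at chr17:35438982-35439131 on the plus strand, *H2-T23* at chr17:36032736-36032885 on the minus strand and *B2m* at chr2:122147490-122147639 on the plus strand.
H2-K1: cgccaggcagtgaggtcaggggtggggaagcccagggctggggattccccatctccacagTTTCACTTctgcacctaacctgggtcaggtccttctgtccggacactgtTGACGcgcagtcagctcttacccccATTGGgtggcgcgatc
H2-D1: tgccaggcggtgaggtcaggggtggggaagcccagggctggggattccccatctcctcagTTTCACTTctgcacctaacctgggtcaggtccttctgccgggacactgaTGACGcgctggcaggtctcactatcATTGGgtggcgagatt
H2-Q4: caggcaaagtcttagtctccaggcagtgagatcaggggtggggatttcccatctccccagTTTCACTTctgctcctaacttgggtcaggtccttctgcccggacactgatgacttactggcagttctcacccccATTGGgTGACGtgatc
H2-Q7: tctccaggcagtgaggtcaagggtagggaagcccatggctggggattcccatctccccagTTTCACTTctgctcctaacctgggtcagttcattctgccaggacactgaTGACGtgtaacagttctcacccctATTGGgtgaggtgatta
H2-T23: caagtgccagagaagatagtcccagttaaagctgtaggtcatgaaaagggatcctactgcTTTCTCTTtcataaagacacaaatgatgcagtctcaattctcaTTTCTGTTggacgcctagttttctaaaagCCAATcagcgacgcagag
B2m: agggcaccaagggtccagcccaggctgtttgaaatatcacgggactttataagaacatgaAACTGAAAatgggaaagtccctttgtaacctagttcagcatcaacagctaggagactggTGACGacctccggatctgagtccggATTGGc

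The classical genes *H2-K1* and *H2-D1* were identical at 90.0% of the aligned bases of these stretches, and *H2-K1* and *H2-Q7* at 83.6%. *H2-K1* shared 77.7% with *H2-Q4*, 52.4% with *H2-T23* and 47.0% with *B2m*. In *H2-K1*, *H2-D1* and *H2-Q7* the CREB/ATF core began 49 bases after the first letter of the IRF core, and in *B2m* 59 bases after it. *H2-Q4* lacked TGACG at that place and held it 80 bases after the core, beyond the CCAAT box. *H2-T23* held 2 IRF cores and no TGACG. The CCAAT box nearest to the core lay 72 to 74 bases after it in the 5 heavy chain genes and 84 bases after it in *B2m*. For *H2-T23* this was counted from the farther core, 124 bases before the start site. Its other core lay nearer to the box, with the 2 at 81 and 52 bases before the start site.

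Reads were recovered from the deposited log2 values, and a normalized count is the reads of a gene scaled by that tumor's size factor. Total reads per tumor were between 9143806 and 13258258, and the member with the fewest reads, *Nlrc5*, had 438 in control tumor 3 (exact Poisson 95% interval, 398 to 481, for counting error only). Counting error was therefore small beside the spread between tumors. Control tumor 1 stood apart from the other controls: its summed marker levels were 2.46 times the mean of control tumors 2 and 3 for leukocytes, 3.31 times for NK cells, 2.93 times for endothelial cells and 2.25 times for fibroblast-like cells, and results are therefore given with and without it. The keratinocyte genes *Krt5* and *Krt14*, from skin, were read in control tumor 3 and FF-10101 tumor 1 and had 0 reads in the other 4 tumors. The collagen gene *Col1a2*, a fibroblast gene that the fibrosarcoma line and host fibroblasts can both express, had 17787 to 61334 normalized counts over the 6 tumors, which does not check the label of the line. Groups were compared with limma on log2(normalized count + 1) over the 13963 genes whose mean was 10 normalized counts or more, with Benjamini-Hochberg adjustment over all of them. Nothing in the labels says whether the tumors of a group were handled apart beyond being separate samples, so p values measure the spread between these samples.

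All 10 class I genes had a higher mean in the FF-10101–treated tumors, by 0.11 to 0.75 on the log2 scale, and none passed the threshold with all 6 tumors. The largest differences were those of *H2-T23*, *Tap1*, *Nlrc5* and *H2-Q4*, and the smallest those of the classical heavy chains *H2-D1* and *H2-K1* and of *H2-Q7*. The median log2 fold change of the 10 genes was 0.55, beside 0.02 over all genes tested, of which 51.9% were higher. At an adjusted p of 0.05, limma called 0 of the 10 genes and limma-voom on the recovered reads also called 0, beside 0.0430% of all genes called with limma. An unadjusted p under 0.05 was reached by 2 of the 10 genes, *H2-Q4* and *Nlrc5*, and by 8.77% of all genes in the higher direction. In the same 2 genes every FF-10101–treated tumor was above every control tumor, as in 10.9% of all genes tested.

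**Figure D1:**
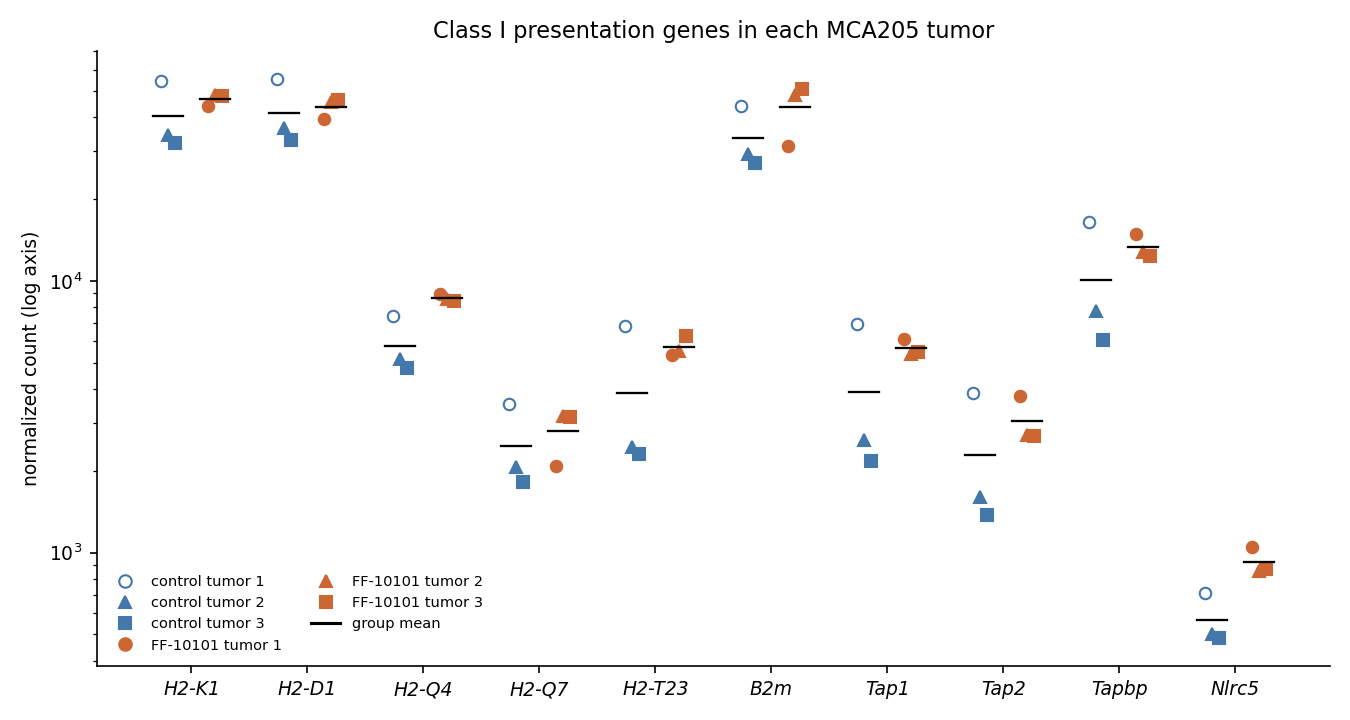
Normalized counts of the 10 class I presentation genes in each of the 6 tumors, on a log axis, with control tumors in blue (control tumor 1 as an open circle), FF-10101–treated tumors in orange and group means as bars. Control tumor 1 was the highest control in all 10 genes, and the groups are separate in *H2-Q4* and *Nlrc5* alone.

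The order of the 3 controls was the same in each gene, and the place of control tumor 1 beside the treated tumors was not. Control tumors 2 and 3 were low, control tumor 1 was higher, and the FF-10101–treated tumors lay above control tumors 2 and 3 in 10 of 10 genes. In *H2-Q7* the margin was small, at 2074 normalized counts in FF-10101 tumor 1 and 2072 in control tumor 2. Control tumor 1 was the highest of all 6 tumors in 7 of the 10 genes. It was below every treated tumor in *H2-Q4* and *Nlrc5* and inside their range in *B2m*. Control tumor 3 was the lowest of all in 10 of 10. The share of all genes with these orders was not computed. The 10 genes varied together over the tumors (median Pearson r 0.85 over their pairs), so these counts are a description. Without control tumor 1 the median log2 fold change of the 10 genes was 0.85, beside 0.04 over all genes, and *H2-Q4*, *H2-T23*, *Tap1*, *Tap2*, *Tapbp* and *Nlrc5* passed the threshold. These are 6 of 10, where 12.0% of all genes passed as higher in the same fit. Without control tumor 3 the median was 0.26 and none of the 10 passed. With array weights, which let limma weight each tumor by its own spread, all 10 passed, where 32.0% of all genes did as higher. That fit rests mostly on control tumor 2 and FF-10101 tumor 2, which had weights of 5.39 and 8.08, while the other 4 tumors had weights of 0.139 to 0.859. Leaving out any other single tumor gave no call among the 10 genes, and over the tumors left out in turn the limma adjusted p was 0.00553 to 0.648 for *H2-Q4*, 0.00638 to 0.648 for *Nlrc5*, 0.00115 to 0.780 for *H2-T23* and 0.00154 to 0.807 for *Tap1*. It was 0.00847 to 0.878 for *Tap2* and 0.00726 to 0.880 for *Tapbp*. The rises given below for single genes are those without control tumor 1. That tumor was set apart after its values were seen. It was the highest control in all 10 genes, so leaving it out raises every log2 fold change. The adjusted p values without it are therefore a description.

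The transactivator *Nlrc5* (ENSMUSG00000074151.14), the master regulator of class I transcription, was the least abundant member. It had 710, 502 and 486 normalized counts in control tumors 1, 2 and 3 and 1052, 857 and 868 in FF-10101 tumors 1, 2 and 3. The groups did not overlap, with 566 ± 125 (SD, n = 3) in the controls and 926 ± 110 (SD, n = 3) in the treated tumors. The log2 fold change was 0.72 (SE 0.19, limma adjusted p = 0.229). The mean was also compared by exact two-sided permutation, which gave p = 0.1, the smallest possible with 3 tumors in each group, and an adjusted p of 0.55 over 11 such tests. With each tumor left out in turn the log2 fold change stayed between 0.62 and 0.90, the narrowest range of the 10 genes, and without control tumor 1 *Nlrc5* rose by 0.90 on the log2 scale (limma adjusted p = 0.00638). Per kilobase of transcript its mean level was 98.4 normalized counts, in the middle of the genes with a known length, of which 51.5% were lower.

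*H2-Q4* (ENSMUSG00000035929.12) is a nonclassical heavy chain of the Q region and was the other gene whose groups were separate. It had 7434, 5146 and 4759.8 normalized counts in control tumors 1, 2 and 3, and 8939, 8614 and 8433 in the treated tumors. The treated tumors lay close together, at 8662 ± 256 (SD, n = 3), and the controls were wider, at 5779.7 ± 1445 (SD, n = 3). Its log2 fold change was 0.61 (SE 0.20, limma adjusted p = 0.242) and its range with 1 tumor left out was 0.49 to 0.81. It rose, without control tumor 1, by 0.81 on the log2 scale (limma adjusted p = 0.00553). A limit of this gene is shared sequence: 58.4% of the 31-base words of its main transcript are also in transcripts of other genes, among them *H2-Q6*, so the split of reads between similar genes is uncertain.

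*H2-T23* (ENSMUSG00000067212.9) encodes Qa-1, which carries a leader peptide of other class I heavy chains and is read by the NK and T cell receptor CD94–NKG2A. Control tumor 1 had 6844 normalized counts, and control tumors 2 and 3 had 2456 and 2313. FF-10101 tumors 1, 2 and 3 had 5351, 5543 and 6256, so that control tumor 1 was above all of them. The group values were 3871 ± 2576 (SD, n = 3) and 5717 ± 477 (SD, n = 3), and the log2 fold change of 0.75 had a 95% interval from −0.14 to 1.65 (limma adjusted p = 0.367). It was 1.26 without control tumor 1 (limma adjusted p = 0.00115), the largest of the 10 genes, and 0.48 without control tumor 3. Of its 31-base words, 49.3% are shared, and 25.3% are in the pseudogene *H2-T-ps*.

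The classical heavy chains *H2-K1* (ENSMUSG00000061232.17) and *H2-D1* (ENSMUSG00000073411.13), which present peptides to CD8+ T cells as Kb and Db in this strain, were far more abundant. *H2-K1* had 54333, 34410.5 and 32152 normalized counts in control tumors 1, 2 and 3 and 44181, 48496 and 47858 in FF-10101 tumors 1, 2 and 3. *H2-D1* had 55508, 36487 and 32995 in the controls and 39456, 45595 and 46211 in the treated tumors. In both genes the treated tumors lay inside the range of the controls. The log2 fold changes were 0.26 for *H2-K1* (95% interval −0.35 to 0.86, limma adjusted p = 0.643) and 0.11 for *H2-D1* (95% interval −0.50 to 0.71, limma adjusted p = 0.860). Neither passed without control tumor 1, with log2 fold changes of 0.49 (limma adjusted p = 0.0552) and 0.33 (limma adjusted p = 0.178). Without control tumor 3 the difference of *H2-K1* was 0.11 and that of *H2-D1* turned to −0.044.

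*H2-Q7* (ENSMUSG00000060550.17), a gene of the Qa-2 antigen, had 3513, 2072 and 1814 normalized counts in the controls and 2074, 3177 and 3161 in the treated tumors. FF-10101 tumor 1 was thus level with control tumor 2, and the groups overlapped. The log2 fold change was 0.22 (SE 0.28, limma adjusted p = 0.719) and its range with 1 tumor left out was 0.03 to 0.50. Its transcript shares 31.8% of its 31-base words with *H2-Q5* and 25.8% with the neighboring gene *H2-Q6*. The sum of *H2-Q6* and *H2-Q7* was 3875 ± 1656 normalized counts (SD, n = 3) in the controls and 4785 ± 1044 (SD, n = 3) in the treated tumors, a log2 ratio of means of 0.30, beside 0.19 for *H2-Q7* by itself.

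The 5 heavy chain genes together gave 127633, 80571 and 74032 normalized counts in control tumors 1, 2 and 3, and 100002, 111425 and 111919 in FF-10101 tumors 1, 2 and 3. The treated tumors lay below control tumor 1 and above control tumors 2 and 3. The means of 94079 ± 29242 (SD, n = 3) and 107782 ± 6742 (SD, n = 3) differed by a log2 ratio of 0.20 (two-sided exact permutation p = 0.4, or 0.55 when adjusted over 11 tests). With each tumor left out in turn the log2 ratio was between 0.05 and 0.48. The wider sum of 11 heavy chain genes, with *H2-Q6*, *H2-Q10*, *H2-T10*, *H2-T22*, *H2-T24* and *H2-M3* added, gave a log2 ratio of 0.21.

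While the sum overlapped between groups, 3 measures of its make-up did not. The ratio of *H2-K1* to *H2-D1* was 0.979, 0.943 and 0.974 in control tumors 1, 2 and 3 and 1.12, 1.06 and 1.04 in FF-10101 tumors 1, 2 and 3. Control tumor 1 was close to the other controls in this ratio, unlike in the levels. The means were 0.965 ± 0.0195 (SD, n = 3) and 1.07 ± 0.0428 (SD, n = 3), a log2 ratio of 0.15 that stayed between 0.12 and 0.18 with each tumor left out. *H2-D1* made up 43.5%, 45.3% and 44.6% of the 5 heavy chains in control tumors 1, 2 and 3, and 39.5%, 40.9% and 41.3% in the treated tumors. *H2-Q4* made up 5.82%, 6.39% and 6.43% of them in the controls, and 8.94%, 7.73% and 7.53% in the treated tumors. For these 3 measures the groups did not overlap, with an exact two-sided permutation p = 0.1 each, the smallest possible, and an adjusted p of 0.267 over 8 shares and ratios. The 3 measures are not independent, since *H2-D1* enters both the ratio and its own share, and the shares divide the same sum. The ratio was added after seeing the data. The share of *H2-T23* was 5.36% in control tumor 1, 3.05% and 3.12% in control tumors 2 and 3, and 4.97% to 5.59% in the treated tumors. The shares of *H2-K1* and *H2-Q7* overlapped between groups (exact permutation test, two-sided p = 0.2 and p = 1.0). Shared sequence bears on the ratio, since *H2-K1* has 16.9% of its 31-base words in common with *H2-D1*, and its part in the result was not tested.

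**Figure D2:**
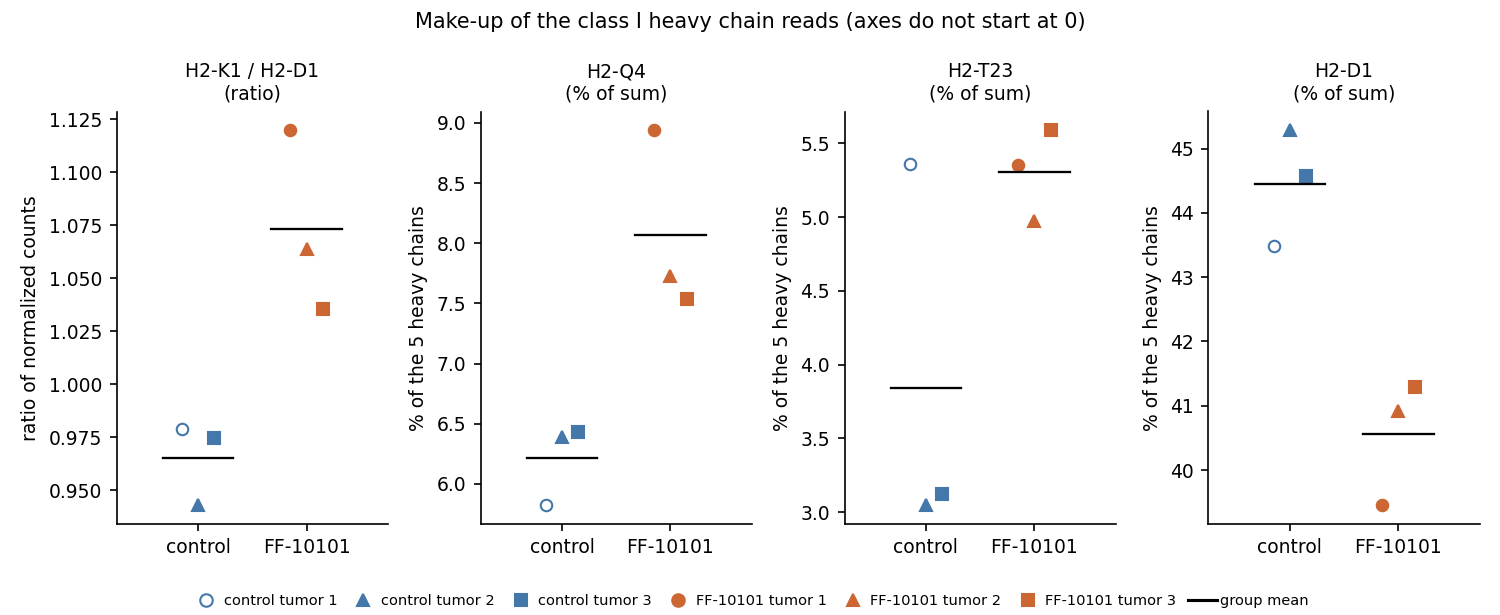
Ratio of *H2-K1* to *H2-D1* normalized counts, and the percent of the summed normalized counts of 5 heavy chain genes that *H2-Q4*, *H2-T23* and *H2-D1* make up, in each tumor, with group means as bars. The ratio was 0.943 to 0.979 in the controls and 1.04 to 1.12 in the treated tumors, while control tumor 1 lay among the treated tumors for *H2-T23*.

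*B2m* (ENSMUSG00000060802.9), the light chain that class I heavy chains need to reach the cell surface, was the fourth most abundant gene per kilobase of the 13032 with a known length, and *H2-K1* ranked 12. It had 43928, 29343 and 27148 normalized counts in control tumors 1, 2 and 3, and 31297, 48331 and 50849 in FF-10101 tumors 1, 2 and 3. FF-10101 tumors 2 and 3 were above every control, and FF-10101 tumor 1 was below control tumor 1. The log2 fold change was 0.38 (95% interval −0.30 to 1.05, limma adjusted p = 0.541), and 0.59 without control tumor 1 (limma adjusted p = 0.102). Over the tumors left out in turn it ran from 0.24, when control tumor 3 was dropped, to 0.60, when FF-10101 tumor 1 was, and dropping FF-10101 tumor 3 gave 0.25. *B2m* shares no 31-base word with another gene. Per kilobase, the 5 heavy chains summed to 1.39, 1.31 and 1.30 times *B2m* in the controls, and to 1.54, 1.11 and 1.06 times in the treated tumors (exact permutation test, two-sided p = 0.5).

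The peptide pump genes *Tap1* (ENSMUSG00000037321.18) and *Tap2* (ENSMUSG00000024339.13) lie next to the immunoproteasome genes *Psmb9* and *Psmb8* on chromosome 17. *Tap1* had 6936, 2586 and 2173 normalized counts in control tumors 1, 2 and 3 and 6132, 5399.9 and 5476 in the treated tumors. For *Tap2* the values were 3880.1, 1603 and 1378 in the controls and 3774, 2705 and 2677 in the treated tumors. In both genes control tumor 1 was the highest of the 6, and the other 2 controls were the lowest. The log2 fold changes were 0.74 for *Tap1* (95% interval −0.18 to 1.65, limma adjusted p = 0.383) and 0.56 for *Tap2* (95% interval −0.30 to 1.42, limma adjusted p = 0.479). Without control tumor 1 *Tap1* rose by 1.26 and *Tap2* by 1.02 on the log2 scale (limma adjusted p = 0.00154 and 0.00847), and without control tumor 3 the values were 0.42 and 0.27. The pump is built of both products, and per kilobase the *Tap1* level was 1.93 ± 0.131 times that of *Tap2* in the controls and 2.20 ± 0.268 times in the treated tumors (SD, n = 3 each; exact permutation test, two-sided p = 0.2).

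*Tapbp* (ENSMUSG00000024308.16), which encodes the loading factor tapasin, had 16544, 7738 and 6039.9 normalized counts in control tumors 1, 2 and 3 and 14896, 12817 and 12401 in the treated tumors. Its levels followed those of *Tap1* most closely of the 45 pairs of members (Pearson r = 0.99 over the 6 tumors), and the lowest of the 45 was 0.46 for *H2-Q7* with *Nlrc5*. The median r over the pairs was 0.85. These correlations describe 6 tumors that share their libraries between genes. The log2 fold change of *Tapbp* was 0.54 (limma adjusted p = 0.468) and 0.96 without control tumor 1 (limma adjusted p = 0.00726), and 0.24 without control tumor 3.

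**Figure D3:**
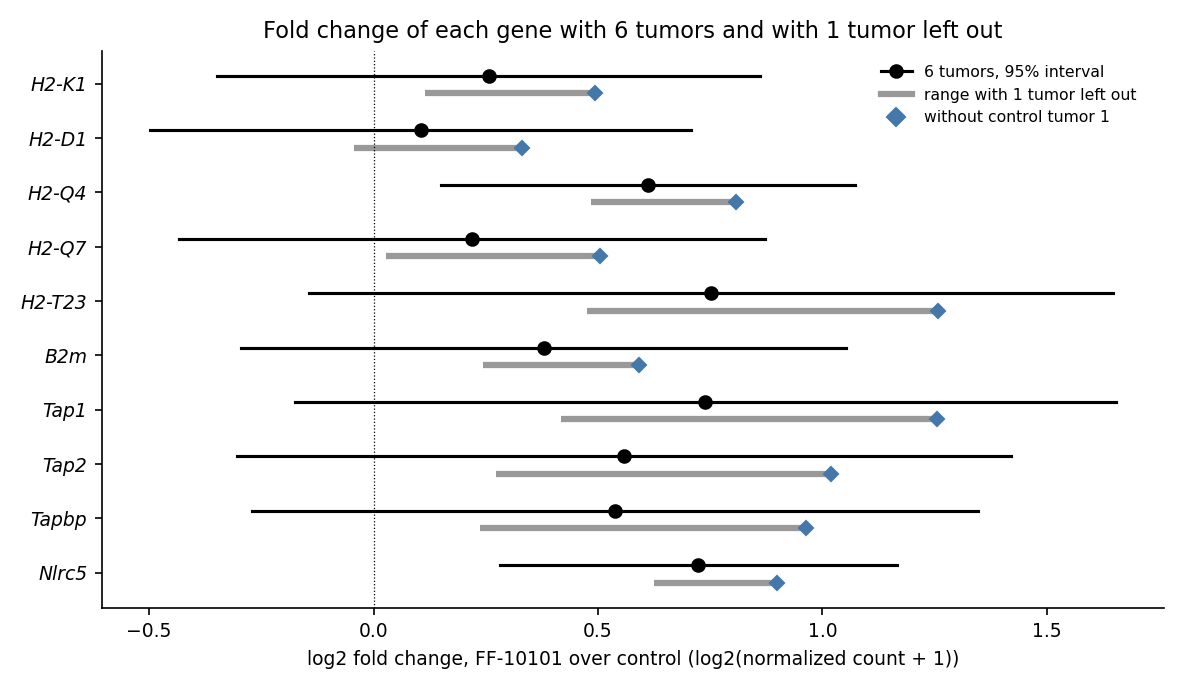
Log2 fold change of each of the 10 genes between FF-10101–treated and control tumors, with its 95% interval from limma (black), the range with 1 tumor left out in turn (gray) and the value without control tumor 1 (blue diamond). The intervals of *H2-Q4* and *Nlrc5* lie above 0, before adjustment over all genes, and the value without control tumor 1 is at the top of the range in 9 of the 10 genes, all but *B2m*.

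Around these 10 genes, other class I and class I–like genes were described from a list of 16, of which 11 were tested. Their median log2 fold change was 0.40, with 9 of 11 higher, 2 at an unadjusted p under 0.05 and 0 past the threshold of limma, and 3 rose without control tumor 1, *H2-Q6*, *Mr1* and *Cd1d1*. Of all genes, 8.77% reached that unadjusted p as higher, and 12.0% rose without control tumor 1. The largest differences were 0.75 for *H2-T24*, 0.71 for *Cd1d1*, which presents lipids to NKT cells, and 0.65 for *H2-M2*. The last gene was read only 2, 19 and 9 times in control tumors 1, 2 and 3 and 10, 17 and 19 times in the treated tumors. Its difference (SE 0.78, limma adjusted p = 0.692) was −0.095 without control tumor 1. *Cd1d1* had 94.6, 74.98 and 59.9 normalized counts in the controls and 147, 116 and 110 in the treated tumors, and *H2-T22* had 4502, 3846 and 4052 against 4828, 5497 and 6071. These 2 genes were the ones of the list whose groups did not overlap, 2 of 11, where 10.9% of all genes had every treated tumor above every control. Not every gene of the family was on: *H2-Q1* and *H2-T3* had 0 reads in all 6 tumors, which allows up to 3 reads, or 2.29 to 3.38 normalized counts by tumor. The class I–like genes *Hfe*, which acts in iron balance, and *Fcgrt*, the IgG transport receptor, had log2 fold changes of −0.30 and −0.47.

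Genes that cut and load peptides were described from a list of 13, all tested. Over these genes the median log2 fold change was 0.27, with 11 higher, 0 at an unadjusted p under 0.05 and 0 past the threshold. The immunoproteasome genes *Psmb8*, *Psmb9* and *Psmb10* had log2 fold changes of 0.23, 0.31 and 0.28 (limma adjusted p = 0.606, 0.623 and 0.614). *Psmb9* had 3625, 1614 and 1696 normalized counts in the controls and 2956, 2626 and 2455 in the treated tumors, with control tumor 1 the highest and the other controls the lowest, as for its neighbor *Tap1*. The chaperone genes *Calr* and *Pdia3* (ERp57) had log2 fold changes of 0.17 and 0.26, and *Pdia3* and *Canx* had every treated tumor above every control, 2 of 13 genes beside 10.9% of all genes. *Erap1*, the aminopeptidase that trims peptides in the endoplasmic reticulum, had a log2 fold change of 0.52, and *Sec61b*, a subunit of the channel into it, −0.56. Without control tumor 1 the median of the list was 0.43 and the log2 fold change of *Psmb9* was 0.69. In that fit *Tapbpl*, *Erap1*, *Psmb8*, *Psmb9* and *Psme1* rose and *Sec61b* fell, where 12.0% of all genes rose and 9.88% fell.

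Regulators of class I genes were divided by kind. *Irf1*, an interferon-induced factor, had 4856, 2518 and 2417 normalized counts in control tumors 1, 2 and 3 against 6349, 4557 and 5107 in the treated tumors, a log2 fold change of 0.77 (SE 0.28, limma adjusted p = 0.263). Control tumor 1 was again above the other controls and inside the range of the treated tumors. The factors through which NLRC5 reaches DNA did not have this order of tumors. In *Rfx5* every treated tumor was above every control, as in 10.9% of all genes. It had 245, 273 and 267 normalized counts in the controls and 381, 312 and 337 in the treated tumors, a log2 fold change of 0.39. Its partner *Rfxank* had a log2 fold change of −0.31 with every treated tumor below every control, as in 9.37% of all genes, and *Nfya*, *Nfyb*, *Nfyc* and *Creb1* had −0.31, 0.07, −0.09 and 0.05. The gene of the histone methyltransferase EZH2, which can silence class I genes in tumors, had a log2 fold change of −0.61. Over the 13 regulators described the median was 0.02, with 8 higher, 2 at an unadjusted p under 0.05 and 0 past the threshold, and without control tumor 1 *Irf1* and *Irf2* rose while *Nfya* and *Ezh2* fell. These are 2 of 13 in each direction, near the 12.0% and 9.88% of all genes, and the 2 at the unadjusted p were higher, as were 8.77% of all genes.

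Interferon-γ itself was a low transcript with a wide range. *Ifng* was read 130, 23 and 10 times in control tumors 1, 2 and 3 and 173, 106 and 212 times in FF-10101 tumors 1, 2 and 3. The lowest of these, 10 reads, has an exact Poisson 95% interval of 4.8 to 18.4 reads. In normalized counts the controls had 146, 24.99 and 11.1 and the treated tumors 132, 115 and 188, so control tumor 1 was inside the range of the treated tumors. The log2 fold change was 1.99 (SE 0.80, limma adjusted p = 0.290), and 3.01 without control tumor 1 (limma adjusted p = 0.00272). Of the 7 genes of the interferon-γ list, *Irf1* included, 6 were higher, 4 had an unadjusted p under 0.05 and 0 passed the threshold, with a median of 0.50. *Jak2* differed by 0.80 on the log2 scale, and the receptor gene *Ifngr2* by −0.38, with every treated tumor below every control, as in 9.37% of all genes. With control tumor 1 left out the median of the 7 was 0.98. In that fit 5 of the 7 rose and *Ifngr2* fell, beside 12.0% and 9.88% of all genes. Of the 4 at the unadjusted p, 3 were higher and 1 lower, beside 8.77% and 7.49% of all genes.

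**Figure D4:**
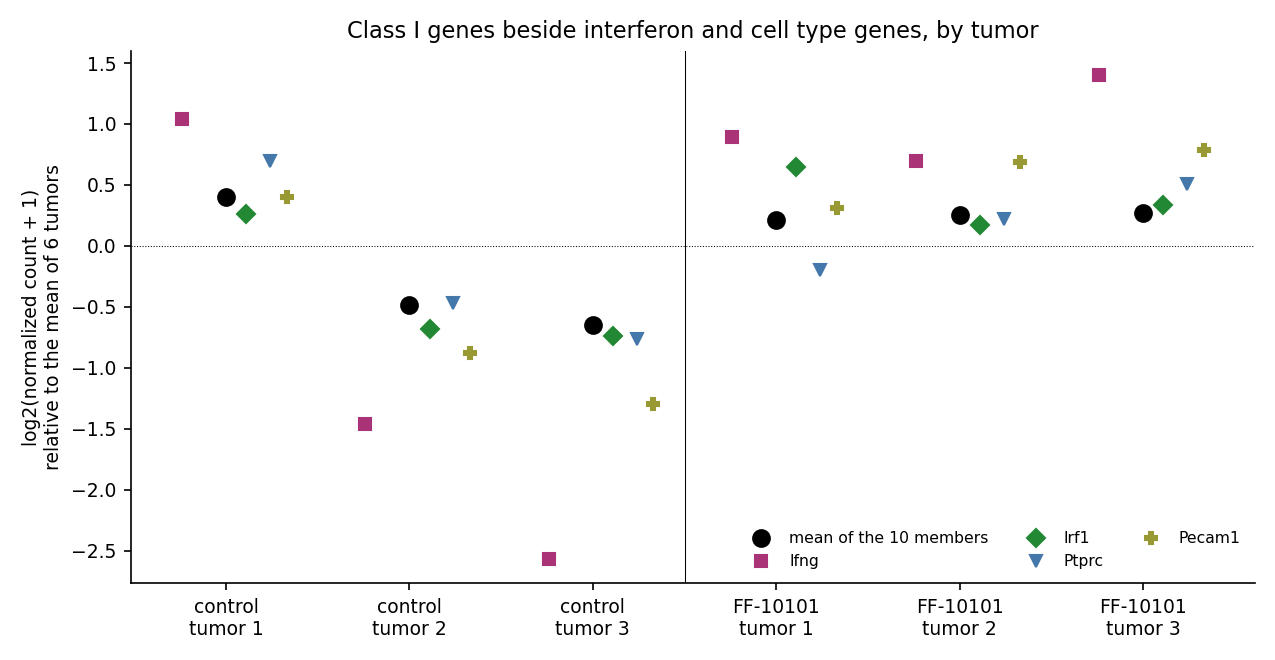
Mean of the 10 class I genes in each tumor, and *Ifng*, *Irf1*, the leukocyte gene *Ptprc* and the endothelial gene *Pecam1*, each as log2(normalized count + 1) relative to its own mean over the 6 tumors. The class I mean was 0.40, −0.49 and −0.65 in control tumors 1, 2 and 3 and 0.21, 0.25 and 0.27 in the treated tumors.

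Receptors that read class I on T cells, NK cells and, for *Pirb*, myeloid and B cells were described from a list of 10 genes, all tested. All 10 were higher, with a median log2 fold change of 0.69, and 0 passed the threshold or had an unadjusted p under 0.05. *Cd8a*, the coreceptor of CD8+ T cells that binds class I, had 326, 77.2 and 66.6 normalized counts in the controls and 165, 289 and 347 in the treated tumors, a log2 fold change of 1.09 (SE 0.59, limma adjusted p = 0.386). *Cd8b1* had a log2 fold change of 1.20. The 2 chains of the receptor for Qa-1, the product of *H2-T23*, were read in every tumor. *Klrc1* (NKG2A) had 432, 140 and 98.7 normalized counts against 228, 333 and 468, a log2 fold change of 0.85 (limma adjusted p = 0.443), and *Klrd1* (CD94) had 463, 266 and 247 against 208, 396 and 461, a log2 fold change of 0.11 (limma adjusted p = 0.897). Both overlapped between groups, and the log2 fold change of *Klrd1* was between −0.12 and 0.45 as tumors were left out. Without control tumor 1 the median of the list was 1.02, and *Cd8a*, *Cd8b1*, *Klrc1* and *Pirb* rose, 4 of 10 beside 12.0% of all genes.

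Sums of cell type markers are given beside the class I genes. The sum of 4 NK markers was 1435, 467 and 399 normalized counts in control tumors 1, 2 and 3 and 847 to 1652 in the treated tumors. The 4 endothelial markers summed to 3898, 1568 and 1096 in the controls and to 3834 to 4536 in the treated tumors, and 6 fibroblast-like markers to 112125 to 280798 and 225491 to 325021. The 6 T cell markers summed to 663 to 1824 in the controls and 849 to 1774 in the treated tumors, and 4 leukocyte markers to 10391 to 25756 and 11519 to 16344. The 5 dendritic cell markers summed to 329 to 1263 and 742 to 815. In all 6 of these sums control tumors 2 and 3 were below every treated tumor, as they were for the class I genes. Single markers did not all have this order. *Itgax*, at 980 normalized counts in control tumor 1, made up most of the dendritic cell sum, while *Flt3* and *Xcr1* of that list had log2 fold changes of −0.38 and −0.24, *Coro1a* of the leukocyte list −0.27 and *Vim* of the fibroblast-like list −0.16. The median log2 fold change of the leukocyte list was 0.07, and 0.49 without control tumor 1. All 6 macrophage markers were lower, with a median log2 fold change of −0.68, and their sum was 30502 to 50935 in the controls and 18481 to 26585 in the treated tumors, without overlap. Without control tumor 1 the median of the macrophage list was −0.44, and *Csf1r* and *Cd68* of that list had log2 fold changes of 0.14 and 0.28. None of these markers was at 0 in any tumor, and none of the lists named here or above had a gene past the threshold with limma or limma-voom and 6 tumors. An unadjusted p under 0.05 was reached by 4 macrophage, 4 endothelial, 2 fibroblast-like and 1 NK marker, the macrophage markers lower and the others higher, where 7.49% of all genes reached it as lower and 8.77% as higher. Without control tumor 1, 4 of 4 NK, 4 of 4 endothelial, 3 of 6 fibroblast-like, 3 of 5 dendritic cell, 1 of 4 leukocyte and 1 of 6 T cell markers rose, and 2 of 6 macrophage markers, *Adgre1* and *Mrc1*, fell, where 12.0% of all genes rose and 9.88% fell. For T cell markers the share is close to that of all genes. Control tumor 1 was set apart by its high leukocyte, NK, endothelial and fibroblast-like sums. The rises of these markers without it therefore follow in part from that choice. Tissue around the tumor did not divide the groups in this way: 5 skeletal muscle markers summed to 2503 to 5309 in the controls and 2428 to 8236 in the treated tumors, and 4 adipocyte markers to 234 to 496 and 257 to 1113. The 4 keratinocyte markers summed to 919 in FF-10101 tumor 1 and to 19.6 to 169 in the other 5 tumors. The part of these cell types in the class I differences was not tested.

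**Figure D5:**
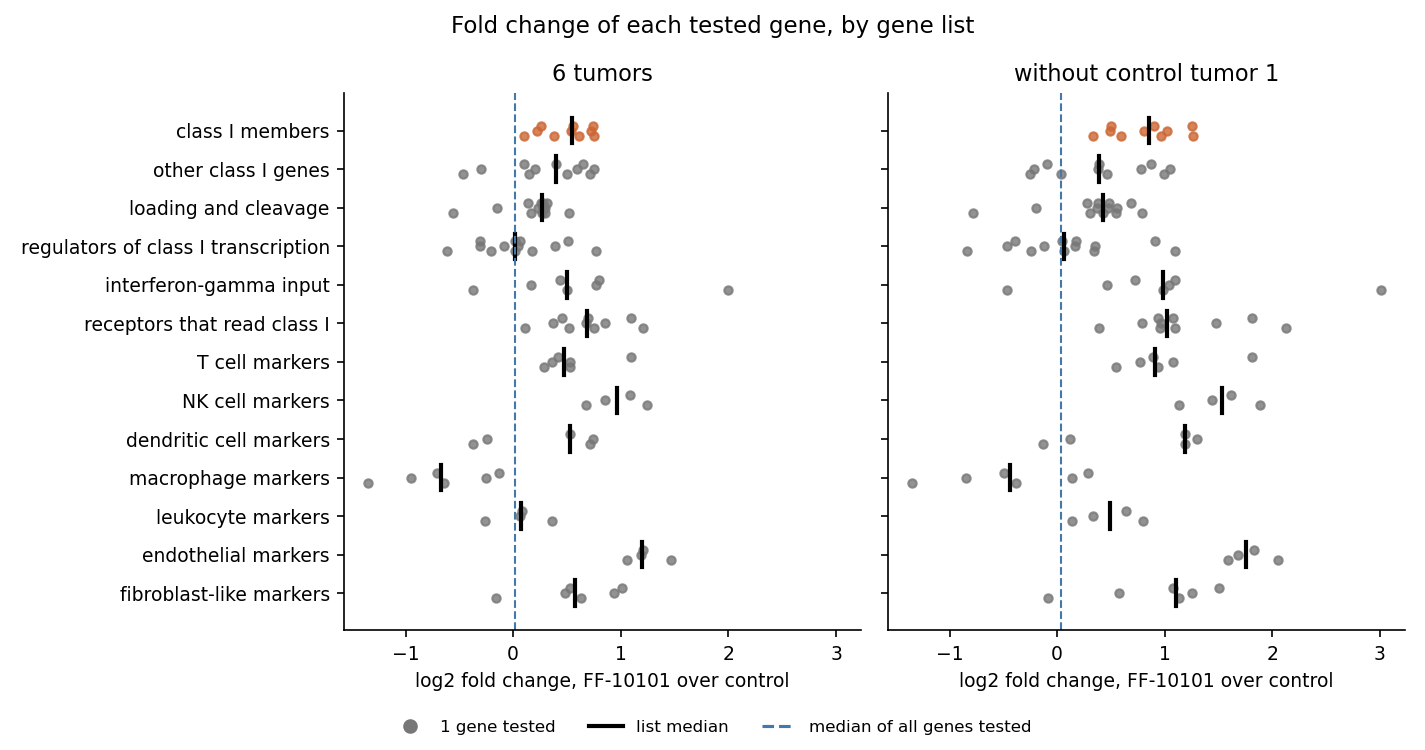
Log2 fold change of every tested gene in each list, with all 6 tumors (left) and without control tumor 1 (right). Black bars are list medians and the dashed line is the median of all 13963 genes tested, 0.02 on the left and 0.04 on the right. The 10 class I genes have a median of 0.55 and 0.85, and the macrophage markers lie mostly to the left of the dashed line.

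The genes whose levels over the 6 tumors were most like the mean of the 10 class I genes were ranked by Pearson r among 13030 protein-coding genes tested. They were *Plvap*, *Hoxb7*, *Hoxb4*, *Pip4k2c*, *Gimap5*, *Fam53c*, *Satb1*, *Samhd1* and *Gbp8* in the first 9 ranks, with r between 0.995 and 0.999. *Plvap*, an endothelial gene, had 3171, 607 and 447 normalized counts in control tumors 1, 2 and 3 and 2219, 2353 and 2278 in the treated tumors. *Samhd1*, which encodes an enzyme that degrades nucleotides and is induced by interferon, had 7480.0, 2004 and 1499 against 5459, 5254 and 6521. In both, control tumor 1 was the highest tumor and control tumors 2 and 3 the lowest. Among the other genes in the lists used here, the 8 of highest rank were *Irf2* at 19, *Erap1* at 28, the dendritic cell marker *Clec9a* at 95, *Ifng* at 120, the endothelial markers *Cdh5* and *Kdr* at 126 and 140, *Psmb8* at 152 and the NK marker *Eomes* at 173. With 6 tumors and this many genes, high values of r are found for many genes, and the ranking is a description.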

How the data were processed

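Total RNA of 6 subcutaneous MCA205 tumors was sequenced, 3 in each group by the labels. The authors trimmed the reads with fastp 0.19.5, quantified them with Salmon 1.5.1 on GENCODE vM27 and used DESeq2 1.22.1, per the submitters' processing notes and the methods. The authors deposited 1 log2 value per gene and tumor, which behaves as a DESeq2 variance-stabilized count. Undoing it turned 100% of the 325854 values into whole reads (tolerance 0.01) and a size factor for each tumor, between 0.888 and 1.31. The deposited unit was thus other than the normalized counts planned for, and the planned test was run on the recovered normalized counts. Salmon divides reads of similar transcripts by estimation, so genes that share sequence are uncertain, and fold changes on log2(normalized count + 1) understate those of genes with few reads. Intervals from counts cover counting error only.

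Groups were compared with limma 3.58.1 in R 4.3.3 (lmFit, and eBayes with a trend) over genes whose mean was 10 normalized counts or more, with group as the only term, and the test was checked on simulated data. Exact two-sided permutation tests were run on single values. Tap, heavy chain and other levels per kilobase used lengths of GENCODE vM21, whose transcripts also gave shared 31-base words, and gene neighbors came from RefSeq. Both are on GRCm38, another build than that of the files, so of these only the promoter sequences are given coordinates.

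The members, gene lists and tests were chosen with earlier results of these data known. Named were the 10 members, from every list each gene past an adjusted p of 0.05 and the 3 tested genes with the largest absolute log2 fold change (for lists of cell types their sums are given in place of these), *Irf1*, *Ifng*, *Psmb8*, *Psmb9*, *Psmb10*, *Calr*, *Pdia3*, *Cd8a*, *Klrc1* and *Klrd1*, and the genes most like the mean of the members (ranks 1 to 9). A gene that these rules also name is not reported here and was left out of the lists. Other names were chosen after their values were seen. The alternatives were the deposited log2 values, limma-voom, array weights, a fit without the trend, quantile normalization, the 75th percentile as scale, a minimum mean of 50 or none, a pseudocount of 0.5 or 10, a replicate block and each tumor left out. Wider sums of heavy chain genes, the ratio of *H2-K1* to *H2-D1* and the lists without control tumor 1 were added after seeing the data.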

Additional observations from a re-analysis of the deposited data

How the results depend on the processing

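The 10 class I genes were refitted under 17 alternatives. Of the 170 values, 153 kept their direction and their side of the threshold, 16 passed it in the same direction, and 1 reversed: *H2-D1*, at −0.044 without control tumor 3, with a range up to 0.33 as tumors were left out. The 16 were 6 genes without control tumor 1 and 10 with array weights, which were 0.139, 5.39 and 0.475 for control tumors 1, 2 and 3 and 0.406, 8.08 and 0.859 for FF-10101 tumors 1, 2 and 3, so that 1 tumor of each group carried most of the weight. The number of the 10 genes past an adjusted p of 0.05 was 10 with array weights and from 0 to 6 as tumors were left out, the 6 without control tumor 1. It was 0 with limma-voom and in the other alternatives. The median log2 fold change of the 10 genes was between 0.26, without control tumor 3, and 0.85, without control tumor 1, and that of the summed heavy chains between 0.05 and 0.48, without the same tumors.

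Over all genes, the number past an adjusted p of 0.05 was 17 with no minimum count, 3 with a mean of at least 50, 8365 with array weights and, as tumors were left out, 1 to 3051, the latter without control tumor 1. With the replicate number as a block it was 1, and 0 of the 10 class I genes passed with this replicate block. Same-numbered tumors did not deviate together (r = −0.29, −0.04 and −0.28), so no positive pairing was seen. With so few tumors these correlations cannot show whether same-numbered tumors were handled together. The fewest reads of any of the 10 genes in a tumor were 438.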
